A study of Mus musculus with 6 samples.

Results

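The STAT genes encode the transcription factors that carry signals from cytokine receptors to the nucleus. Stat2, Stat3, Stat4, Stat5a, Stat5b and Stat6 were taken by gene symbol, and these 6 genes are described here out of 15845 genes in a table of RNA-seq read counts. A filter on low counts left 13149 genes for testing, and all 6 STAT genes passed it. The RNA came from bone marrow LSK cells, which lack the markers of mature blood lineages and carry Sca1 and c-Kit on their surface, a fraction that holds blood stem cells and early multipotent progenitors. All mice were C57BL/6 with the genotype Mx1Cre; Jak2VF/VF, so vehicle and treated mice alike carried the mutant Jak2 allele in both copies. Mx1Cre is a recombinase under an interferon-responsive promoter, active in blood cells and in several other tissues. The vehicle group received PBS, and the other group received TP-3654, named in the series title as a Pim1 inhibitor, in a daily dose of 150 mg/kg over 6 weeks. There are 3 libraries per group, called biological replicates by the submitters, and the labels give no age. The comparison asks how the RNA of each STAT gene differed between the 2 groups.

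In textbook accounts, cytokine receptors without enzyme activity of their own hold JAK kinases, which phosphorylate a STAT protein on a tyrosine after the cytokine binds. The phosphorylated STAT forms a dimer, enters the nucleus and binds short palindromic DNA sites, and some of the genes it switches on, such as Cish and the Socs genes, feed back on the receptor. In blood stem and progenitor cells STAT5 is known as a main carrier of signals from erythropoietin and interleukin 3, and it is a central effector of mutant JAK2 in myeloproliferative disease. Pim1 and Pim2 are known STAT5 target genes. STAT activity is set by phosphorylation, which RNA levels do not show.

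No STAT gene passed the test between TP-3654 and vehicle. The test was edgeR's quasi-likelihood test with Benjamini-Hochberg adjustment over all tested genes (the false discovery rate, FDR), and 0 of 6 had an FDR under 0.05, as did 0.0% of all genes. Stat4 and Stat3 were the 2 genes with an unadjusted p under 0.05, both higher with TP-3654, and for both the 3 treated libraries lay above the 3 vehicle libraries. Across all tested genes 17.1% had an unadjusted p under 0.05 (10.2% higher and 6.84% lower). For 25.9% the groups did not overlap (14.3% with the treated libraries above all vehicle libraries and 11.6% below). Stat5a, Stat5b, Stat6 and Stat2 overlapped between the groups. The median log2 fold change of the 6 genes was 0.10, beside 0.01 over all tested genes. DESeq2, run on the same counts, also called 0 of the 6, beside 4.92% of the genes for which it gave an adjusted p.

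Library totals ran from 20582057 to 25315596 counts, and 3 counts, the smallest amount taken as detected here, correspond to 0.119 to 0.146 CPM (read counts divided by the TMM-corrected library total and put on a common scale). All STAT values were far above that limit. TP-3654 replicate 3 stood apart from the other libraries: its log2 CPM correlated with theirs at 0.942 to 0.962, against 0.975 to 0.987 among the other 10 pairs of libraries. It also had the highest value of any library for 5 of the 6 STAT genes, Stat2 being the exception. Without it, 0 of the 6 STAT genes had an unadjusted p under 0.05, beside 12.5% of all genes, and their median log2 fold change was 0.03. Fewer cells of a type and less RNA per cell cannot be told apart in such bulk libraries.

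Several marker lists also differed between the groups. Summed over 10 LSK and stem cell markers, the level was 724 to 809 CPM in vehicle and 1084 to 1188 CPM in TP-3654 libraries, and 7 were higher and 0 lower at an unadjusted p under 0.05, beside 10.2% and 6.84% of all tested genes. Slamf1, the stem cell surface marker CD150, lay the other way, lower in every treated library (13.4 ± 0.905 against 10.5 ± 2.99 CPM, -0.35, edgeR FDR 0.447). Summed over 10 granulocyte-monocyte progenitor markers it was 11984 to 15010 CPM in vehicle and 3278 to 8798 CPM with TP-3654, and 0 were higher and 7 lower at an unadjusted p under 0.05. Summed over 8 megakaryocyte markers the level was 362 to 377 CPM in vehicle and 415 to 489 CPM with TP-3654, without overlap, although the list's median log2 fold change was -0.27. Of 8 mast cell and basophil markers, 4 were lower in every treated library, beside 11.6% of all tested genes. Of those, 3 had an unadjusted p under 0.05 (Tpsb2, Cma1 and Cpa3), beside 6.84% of all tested genes. The list's median was -0.59, with sums of 629 to 703 CPM in vehicle and 292 to 679 CPM with TP-3654. No marker of these lists passed the FDR of 0.05 in edgeR. The part of these differences in the STAT values was not tested. Of the 11 counted markers of T, NK and innate lymphoid cells, Cd3e, Cd3g, Cd8a and Gzma had at most 3 counts in any library, and the summed level of 229 to 271 CPM in vehicle and 143 to 226 CPM with TP-3654 was mostly Nkg7 (log2 fold change -0.57). Over the 5 tested markers of that list the median was 0.46. Among them 2 were higher in every treated library, beside 14.3% of all tested genes, and Il2rb (1.19) had an unadjusted p under 0.05. Nkg7 was the 1 that was lower in every treated library, beside 11.6% of all tested genes. B cell markers summed to 30.1 to 45.7 and 29.9 to 32.1 CPM.

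**Figure D1:**
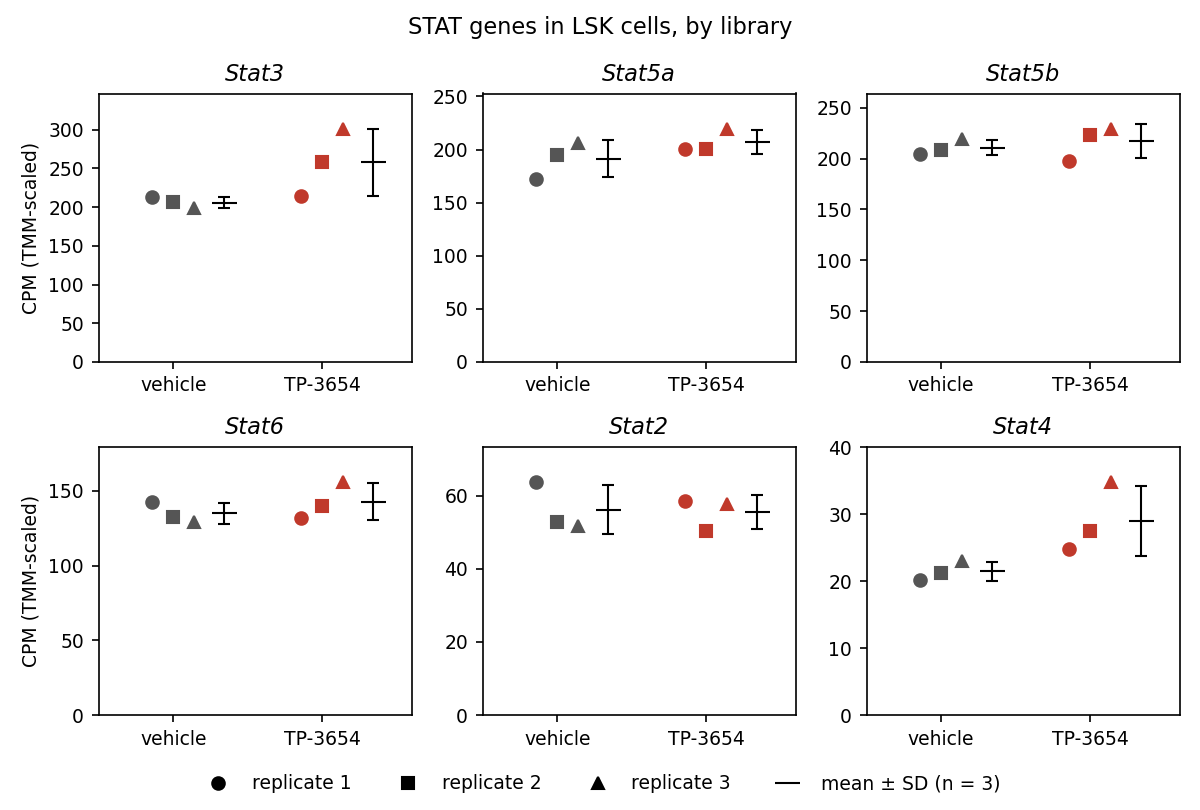
TMM-scaled CPM (y axis from 0) of each STAT gene in the 3 vehicle (grey) and 3 TP-3654 (red) libraries, with the marker shape giving the replicate number and the bar the mean ± SD (n = 3). For Stat3 and Stat4 the treated libraries lie above the vehicle libraries, with TP-3654 replicate 3 highest, and for the other 4 genes the groups overlap.

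Stat5a and Stat5b encode the 2 STAT5 proteins, made from neighbouring genes. Stat5a stood at 172, 195 and 207 CPM in vehicle replicates 1 to 3 and at 201, 201 and 220 CPM in TP-3654 replicates 1 to 3. The lowest library was vehicle replicate 1, and vehicle replicate 3 lay above 2 of the 3 treated libraries. The means were 191 ± 17.3 and 207 ± 11.1 CPM (SD, n = 3), with a log2 fold change of 0.11 (SE 0.11, 95% interval -0.137 to 0.366, edgeR FDR 0.597). Stat5b stood at 205, 209 and 219 CPM in vehicle and at 198, 223 and 230 CPM with TP-3654. Both the lowest and the highest library of Stat5b were treated ones. Its means were 211 ± 7.32 and 217 ± 16.8 CPM, with a log2 fold change of 0.04 (SE 0.11, 95% interval -0.199 to 0.282, edgeR FDR 0.857). The estimate for Stat5b was -0.011 without TP-3654 replicate 3, and the intervals of both genes leave room for a difference of either sign.

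The ratio of the 2 STAT5 genes did not differ between the groups beyond the spread of the libraries. Per kilobase of merged exons, the log2 ratio of Stat5a to Stat5b was -0.61, -0.46 and -0.45 in vehicle and -0.35, -0.52 and -0.43 with TP-3654. Stat5b was the higher of the 2 in every library on this scale, whereas per kilobase of the longest transcript the mean of Stat5a was the higher (50.3 against 41.0 CPM per kilobase). The mean ratio was -0.51 ± 0.09 in vehicle and -0.43 ± 0.09 with TP-3654, a difference of 0.08 (two-sided exact permutation p = 0.4, where 3 against 3 libraries cannot go below 0.1).

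Stat5b, Stat5a and Stat3 lie next to each other on chromosome 11. In the GENCODE annotation of GRCm38, Stat5b covers chr11:100780731-100850724 on the minus strand, Stat5a chr11:100859351-100885169 on the plus strand and Stat3 chr11:100885098-100939540 on the minus strand. Stat5b and Stat5a start back to back with 8.626 kb between the annotated genes, and Stat5a and Stat3 end towards each other with an overlap of 72 bases. RefSeq extends Stat5b to position 100859004 and ends Stat3 at 100886806, so there the last 2 do not overlap. The strand setting of the read counting is not given in the sources used here, so reads from the overlap cannot be assigned to either gene.

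Stat5a and Stat5b are also close copies. Their coding sequences were identical at 2080 of 2291 aligned bases (90.8%), against 57.6% to 65.0% for the other 14 pairs of STAT genes. Of all 31-base words in the transcripts of Stat5a 11.5% also occur in Stat5b, and of those of Stat5b 15.1% occur in Stat5a, so how reads were shared out between them depends on the counting. A stretch of 65 bases at an annotated start of each gene is shown because it, too, is alike, identical at 58 positions (89.2%), taken from RefSeq on GRCm38.p6 and written 5′ to 3′ along each gene, with identical bases in capitals. It spans -66 to -2 from a start of Stat5a (chr11:100860418-100860482, plus strand) and -57 to 7 from a start of Stat5b (chr11:100822563-100822627, minus strand), where the start itself is position 0. Both starts, at 100860484 and 100822570, lie inside the GENCODE gene and not at its 5′ end. The stretch is the best ungapped match found among the RefSeq windows around the starts of Stat5a and Stat5b.

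Stat5a: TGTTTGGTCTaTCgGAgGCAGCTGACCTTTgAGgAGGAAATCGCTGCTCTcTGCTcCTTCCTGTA
Stat5b: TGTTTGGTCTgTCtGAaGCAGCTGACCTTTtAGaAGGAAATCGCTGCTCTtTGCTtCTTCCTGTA

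STAT3 responds to interleukin 6 family cytokines and to granulocyte colony-stimulating factor. Stat3 stood at 212, 206 and 199 CPM in vehicle and at 215, 258 and 302 CPM with TP-3654. TP-3654 replicate 1 was only just above vehicle replicate 1, and replicates 2 and 3 were clearly higher. The means were 206 ± 6.78 and 258 ± 43.4 CPM, so the treated libraries were spread more widely. The log2 fold change was 0.33 (SE 0.14, 95% interval 0.021 to 0.629), with an unadjusted p of 0.0385 and an FDR of 0.268 in edgeR. Without TP-3654 replicate 3 it was 0.19 (edgeR unadjusted p = 0.128), and with each library left out in turn the unadjusted p was under 0.05 in 1 of 6 fits.

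STAT4 carries interleukin 12 signals in T and NK cells and is best known for driving interferon gamma production. Stat4 lies at chr1:51987148-52107189 on the plus strand (GRCm38). It stood at 20.2, 21.2 and 23.1 CPM in vehicle and at 24.8, 27.5 and 34.9 CPM with TP-3654. Every treated library was above every vehicle library, and TP-3654 replicate 3 was well above the other two. The means were 21.5 ± 1.44 and 29.0 ± 5.21 CPM, with a log2 fold change of 0.44 (SE 0.16, 95% interval 0.075 to 0.795), an unadjusted p of 0.0230 and an FDR of 0.229 in edgeR. Leaving out each library in turn gave 0.27 to 0.54, with an unadjusted p under 0.05 in 3 of 6 fits, and the lowest value was the one without TP-3654 replicate 3 (edgeR unadjusted p = 0.0904). Of the 31-base words in Stat4 transcripts 23.7% are shared with Gm28177, another gene annotated in GENCODE. The counts of Stat4 are therefore uncertain where such reads were split or dropped.

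STAT6 carries interleukin 4 and interleukin 13 signals. Stat6 stood at 142, 133 and 129 CPM in vehicle and at 132, 140 and 156 CPM with TP-3654. Only TP-3654 replicate 3 lay above all vehicle libraries. The means were 135 ± 6.80 and 143 ± 12.2 CPM, with a log2 fold change of 0.08 (SE 0.11, 95% interval -0.163 to 0.325, edgeR FDR 0.708), and without that library it was 0.00.

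STAT2 is the interferon STAT that pairs with IRF9, which brings it to interferon-stimulated response elements in DNA. Stat2 stood at 63.8, 52.9 and 51.8 CPM in vehicle and at 58.5, 50.2 and 57.6 CPM with TP-3654. The highest library was vehicle replicate 1 and the lowest TP-3654 replicate 2. The means were 56.1 ± 6.62 and 55.5 ± 4.58 CPM, with a log2 fold change of -0.02 (SE 0.13, 95% interval -0.305 to 0.269, edgeR FDR 0.952), and leaving out each library in turn gave -0.073 to 0.082. Stat2 lies at chr10:128270559-128292849 and Stat6 at chr10:127642986-127660957, both on the plus strand with 609.601 kb between them, so 5 of the 6 genes sit in 2 groups on chromosomes 10 and 11.

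**Figure D2:**
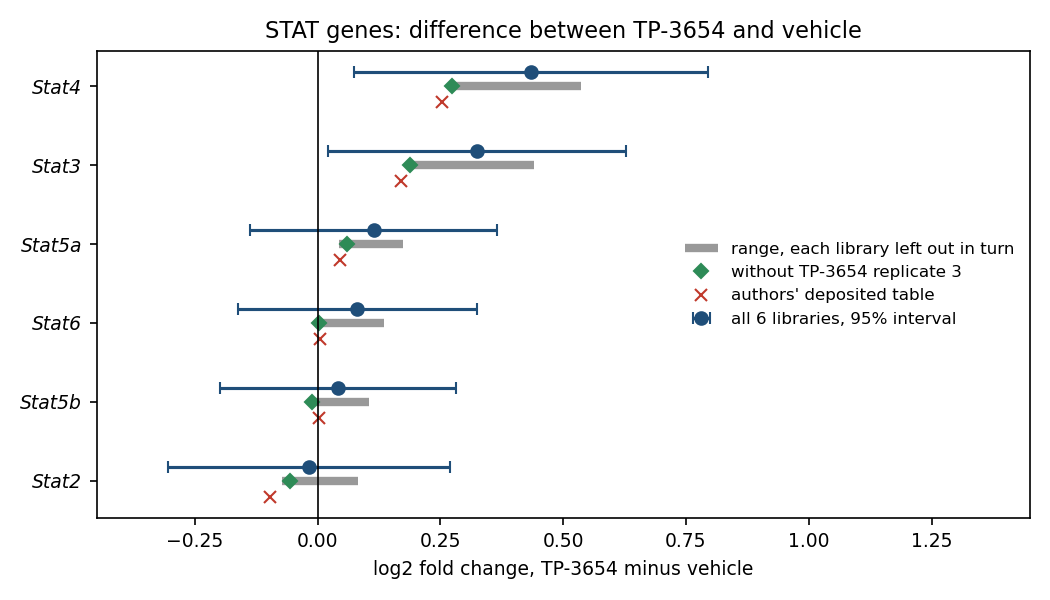
Log2 fold change (x axis, TP-3654 minus vehicle) of each STAT gene, with the blue point and line giving the edgeR estimate and 95% interval for all 6 libraries, the grey bar the range with each library left out in turn, the green diamond the fit without TP-3654 replicate 3 and the red cross the authors' deposited table. The blue intervals of Stat4 and Stat3 lie above 0, and their lowest left-out values, 0.27 and 0.19, are those without TP-3654 replicate 3.

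Levels of different genes were compared per length, first as CPM per kilobase of merged exons from GENCODE. Over all 6 libraries the order was Stat5b at 38.6 ± 2.18, Stat6 at 31.5 ± 2.23, Stat5a at 27.9 ± 2.19, Stat3 at 24.3 ± 4.18, Stat2 at 9.42 ± 0.862 and Stat4 at 6.52 ± 1.39 CPM per kilobase (SD, n = 6). The ranges of Stat5b and Stat6 did not overlap, nor did those of Stat3 and Stat2. The ranges of Stat6 and Stat5a overlapped although Stat6 was the higher in 6 of 6 libraries, those of Stat5a and Stat3 overlapped with Stat5a higher in 5 of 6, and those of Stat2 and Stat4 overlapped with Stat2 higher in 6 of 6. Together Stat5a and Stat5b made up 45.7% to 51.3% of the summed level of the 6 genes, depending on the library. The share of Stat3 was 16.4% ± 0.652 in vehicle and 18.6% ± 1.53 with TP-3654, and that of Stat4 was 4.20% ± 0.251 and 5.16% ± 0.465.

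The order of the upper 4 genes depended on the length used. Divided by the longest transcript, Stat5a was highest at 50.3 and Stat5b second at 41.0 CPM per kilobase. Divided by the coding length, Stat3 was highest at 100.4 and Stat5b second at 90.7 CPM per kilobase. Stat2 and Stat4 were the lowest 2 under all 3 lengths, so the split between 4 abundant and 2 scarce STAT genes did not depend on it.

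**Figure D3:**
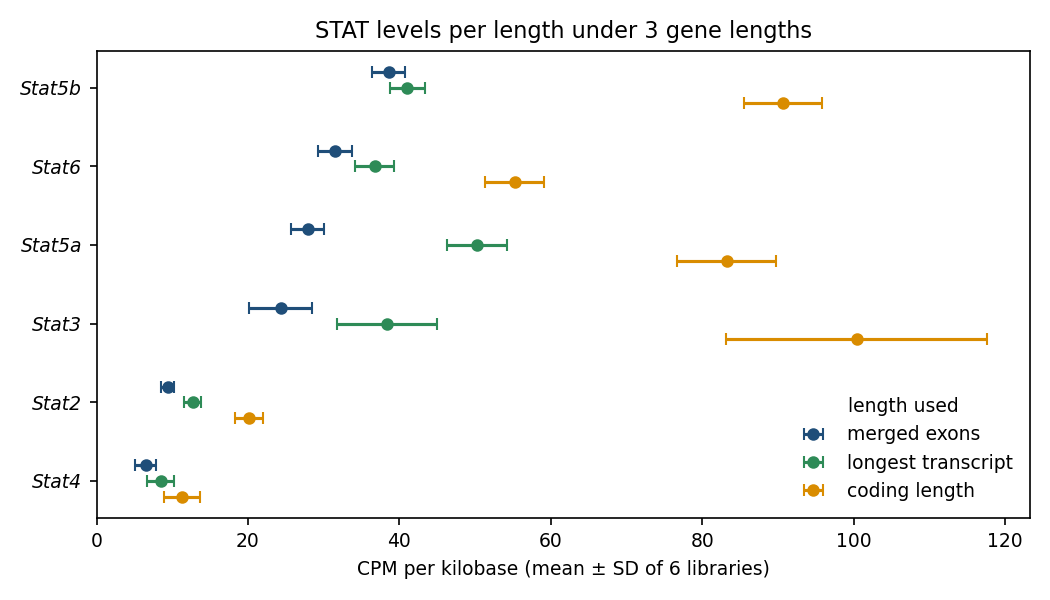
Level of each STAT gene in CPM per kilobase (x axis from 0) as the mean ± SD of 6 libraries, divided by merged exon length (blue), longest transcript (green) or coding length (orange). Stat2 and Stat4 lie below the other 4 genes under each length, and the order of those 4 differs between the lengths.

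Receptors and kinases act upstream of the STAT proteins. Of the 4 JAK kinase genes, 0 passed the FDR of 0.05, and 2 were higher and 0 lower at an unadjusted p under 0.05, beside 10.2% and 6.84% of all tested genes. Jak3, the kinase of receptors with the common gamma chain, stood at 192, 179 and 211 CPM in vehicle and at 255, 300 and 315 CPM with TP-3654. All treated libraries were above all vehicle libraries, with a log2 fold change of 0.58 (SE 0.12, edgeR FDR 0.0831). Jak1, used by most receptor families, stood at 249 ± 18.9 and 327 ± 33.1 CPM (0.39, SE 0.12, edgeR FDR 0.174), again without overlap. In the authors' deposited table both passed 0.05, Jak1 with a log2 fold change of 0.32 (deposited adjusted p = 0.00219) and Jak3 with 0.45 (deposited adjusted p = 0.0431). The share of all genes that passed there is not given here. Tyk2, an interferon and interleukin 12 receptor kinase, stood at 103 ± 8.84 and 88.0 ± 3.81 CPM (-0.22, edgeR FDR 0.323), with the treated libraries below the vehicle ones. Jak2, the gene that carries the mutation in these mice, stood at 66.2 ± 5.39 and 62.3 ± 1.95 CPM (-0.09, edgeR FDR 0.686), with groups that overlapped.

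Of 34 listed cytokine receptor genes 29 were tested, 0 passed the FDR of 0.05, and 5 were higher and 5 lower at an unadjusted p under 0.05, beside 10.2% and 6.84% of all tested genes. Both chains of the interferon gamma receptor were among the lower ones. Ifngr1 stood at 219, 200 and 200 CPM in vehicle and at 111, 150 and 88.0 CPM with TP-3654 (-0.83, SE 0.18, edgeR FDR 0.0875). Ifngr2 stood at 54.0, 57.2 and 51.0 CPM and at 33.8, 36.9 and 30.2 CPM (-0.68, SE 0.12, edgeR FDR 0.0792). In both, every treated library was below every vehicle library. Without TP-3654 replicate 2, Ifngr1 passed with a log2 fold change of -1.05 (edgeR FDR 0.0464), as did 0.135% of all genes in that fit. Ifnar1 and Ifnar2, the chains of the type I interferon receptor that signals through STAT2, had log2 fold changes of -0.08 and -0.12. These 2, and the receptors in the next sentence other than Il3ra, were chosen after their values were seen. Il3ra, the interleukin 3 receptor chain, was also lower in every treated library (49.3 ± 5.09 against 30.9 ± 5.14 CPM, -0.67), with Csf2ra (-0.58) and Il21r (-0.37) the other 2 of the 5, while Il7r (1.51), Il2rb (1.19), Ghr (0.89) and Il11ra1 (0.35) were among the higher ones. The list's median was -0.08. Ifngr1, Ifngr2 and Il3ra were lower in the same libraries in which the granulocyte-monocyte progenitor markers were lower, and the part of that in their values was not tested.

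Among 7 partners and coactivators of STAT proteins, 2 were higher and 1 lower at an unadjusted p under 0.05, beside 10.2% and 6.84% of all tested genes, and 0 passed the FDR of 0.05. Irf9, the DNA-binding partner of STAT2, stood at 89.8 ± 10.6 and 94.9 ± 9.36 CPM (0.08, edgeR FDR 0.757). The coactivator genes Ncoa1 (25.8 ± 3.51 against 33.3 ± 0.785 CPM, 0.37) and Crebbp (47.6 ± 3.80 against 58.6 ± 5.31 CPM, 0.30) were higher in every treated library. Lmo4, a LIM domain cofactor, was lower in every treated library (80.6 ± 8.16 against 54.1 ± 10.4 CPM, -0.57, edgeR FDR 0.135).

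Of 20 inhibitors of the pathway, all tested, 3 were higher and 1 lower at an unadjusted p under 0.05, shares near the 10.2% and 6.84% of all tested genes. The list's median was 0.19. Cish, a feedback inhibitor induced by STAT5, stood at 24.9, 24.1 and 16.5 CPM in vehicle and at 49.4, 52.6 and 35.3 CPM with TP-3654. The lowest treated library was above the highest vehicle one, and the means were 21.8 ± 4.68 and 45.8 ± 9.20 CPM. The log2 fold change of Cish was 1.07 (SE 0.21, edgeR FDR 0.0792), and without TP-3654 replicate 3 it was 1.21 and passed (edgeR FDR 0.0299), as did 0.232% of all genes in that fit. Socs2, another STAT5-induced inhibitor, stood at 10.8 ± 2.86 and 17.9 ± 2.76 CPM (0.73, edgeR FDR 0.172), and Socs5 at 32.6 ± 2.30 and 43.9 ± 2.24 CPM (0.43, edgeR FDR 0.148), both without overlap. Socs3, the feedback inhibitor of STAT3 signals, was decided by a single library: TP-3654 replicate 2 had 114 CPM and the other 5 libraries 21.7 to 37.9 CPM, and the log2 fold change of 0.92 (edgeR FDR 0.467) was 0.09 without that library. Socs1 stood at 6.41 ± 0.954 and 7.53 ± 3.60 CPM, with groups that overlapped. Pias4 (-0.37), named because it was the lower one of the 4, had an edgeR FDR of 0.216.

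The promoter of Cish is shown because STAT5 sites there are well known. It is the RefSeq window of 300 bases on GRCm38.p6, chr9:107296409-107296708 on the plus strand, from 250 before to 50 after the start, written 5′ to 3′, with matches to TTCNNNGAA in capitals at 0 and 11 from the start.

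Cish: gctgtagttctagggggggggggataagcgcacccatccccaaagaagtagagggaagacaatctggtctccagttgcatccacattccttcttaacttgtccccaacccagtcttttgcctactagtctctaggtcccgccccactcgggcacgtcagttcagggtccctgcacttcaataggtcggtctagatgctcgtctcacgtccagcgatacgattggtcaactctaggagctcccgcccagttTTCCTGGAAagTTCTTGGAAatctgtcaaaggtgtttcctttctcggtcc

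Motif letters were searched on both strands of such windows for 27025 genes. The core of a STAT dimer site, TTCNNNGAA, occurred at 9.55% of genes, the wider form that STAT6 prefers, TTCNNNNGAA, at 8.01%, and GAAANNGAAA, a form of the interferon-stimulated response element, at 3.99%. None of the 6 STAT genes held TTCNNNGAA, 1 held TTCNNNNGAA and 2 held GAAANNGAAA. Stat2 held the last 2 motifs, at -210 and -222 from its start and without overlap between them, and Stat4 held GAAANNGAAA at -97 from a second start. These 2 windows are shown because they hold all matches of the 6 genes. They lie at chr10:128270248-128270547 and chr1:52007990-52008289, both on the plus strand, with the matches in capitals. The GAAANNGAAA match of Stat2 reads on the minus strand. A match describes the letters only.

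Stat2: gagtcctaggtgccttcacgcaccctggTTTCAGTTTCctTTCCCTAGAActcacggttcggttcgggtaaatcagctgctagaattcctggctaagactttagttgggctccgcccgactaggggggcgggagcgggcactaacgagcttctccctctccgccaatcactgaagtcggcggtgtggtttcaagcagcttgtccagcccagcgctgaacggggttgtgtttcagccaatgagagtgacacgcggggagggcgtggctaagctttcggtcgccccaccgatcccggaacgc
Stat4: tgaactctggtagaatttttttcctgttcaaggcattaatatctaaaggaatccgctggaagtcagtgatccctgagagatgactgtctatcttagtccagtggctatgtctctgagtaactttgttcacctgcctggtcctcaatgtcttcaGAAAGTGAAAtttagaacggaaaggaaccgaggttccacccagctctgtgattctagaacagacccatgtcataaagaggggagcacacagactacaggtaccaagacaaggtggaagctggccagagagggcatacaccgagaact

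Of 18 listed target genes of STAT5 17 were tested, and 4 were higher and 0 lower at an unadjusted p under 0.05, beside 10.2% and 6.84% of all tested genes, while 0 passed the FDR of 0.05. The list had a median log2 fold change of 0.24. Besides Cish and Socs2 these were Pim2 and Dusp5, a phosphatase of ERK kinases. Pim2, a kinase gene of the Pim family, stood at 46.1, 32.0 and 41.2 CPM in vehicle and at 71.0, 130 and 73.0 CPM with TP-3654 (1.20, SE 0.26, edgeR FDR 0.107), and Dusp5 at 13.1 ± 2.05 and 19.4 ± 1.39 CPM (0.56, edgeR FDR 0.172). In both genes all treated libraries were above all vehicle libraries. Without TP-3654 replicate 3 the count was again 4 higher and 0 lower, beside 12.5% of all genes in either direction, with a median of 0.23. Without TP-3654 replicate 2 it was 4 higher and 1 lower, and the share of all genes in that fit is not given here. Over the fits without 1 library the list's median ran from 0.07 (without TP-3654 replicate 2) to 0.30 (without vehicle replicate 3). The promoter windows of 12 of the listed genes could be searched, and 3 of them (25.0%) held TTCNNNGAA, beside 9.55% of all genes searched. These were Bcl6, Cish and Socs3, while the windows of Pim2 and Dusp5 held no match. The summed level of the LSK and stem cell markers was also higher in every treated library, and their part in these values was not tested.

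Of 18 STAT3 target genes 16 were tested, and 0 were higher and 2 lower at an unadjusted p under 0.05, beside 10.2% and 6.84% of all tested genes. The list's median was -0.11. Cebpb, a transcription factor of emergency granulopoiesis, stood at 14.8, 8.33 and 7.79 CPM in vehicle and at 4.63, 6.46 and 3.07 CPM with TP-3654 (-1.12, SE 0.34, edgeR FDR 0.173). Birc5, which encodes the mitotic protein survivin, stood at 152 ± 4.34 and 111 ± 28.3 CPM (-0.45, edgeR FDR 0.236). Both had treated libraries below all vehicle libraries. Lcn2, a secreted iron-binding protein of neutrophils, stood at 18.1 ± 8.56 and 5.32 ± 4.61 CPM (-1.75, edgeR FDR 0.304), and its groups overlapped. Granulocyte-monocyte progenitor markers were lower in the same libraries. Mature neutrophil and monocyte markers summed to 503, 203 and 220 CPM in vehicle replicates 1 to 3. With TP-3654 they summed to 158, 246 and 174 CPM. Their median log2 fold change was -1.23 with all libraries and 2.98 without vehicle replicate 1, over 7 tested markers of 10 in each fit. Without vehicle replicate 1 the single markers ran from -0.54 to 7.73. The sums of vehicle replicates 2 and 3 lay within the range of the treated libraries, so the median of 2.98 does not describe the summed level. The part of both marker lists in the values of the STAT3 target genes was not tested.

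All 31 listed interferon target genes of STAT2 were tested, and 2 were higher and 0 lower at an unadjusted p under 0.05, beside 10.2% and 6.84% of all tested genes. The list's median was 0.21. They were Ddx58, the sensor of viral RNA called RIG-I, at 41.2 ± 5.88 and 62.2 ± 7.68 CPM (0.59, SE 0.15, edgeR FDR 0.112), and Eif2ak2, the RNA-activated kinase PKR, at 56.9 ± 4.31 and 75.8 ± 12.8 CPM (0.41, edgeR FDR 0.204). Cmpk2 had the next smallest p and lay the other way, at 27.2 ± 2.32 and 21.1 ± 4.62 CPM (-0.37, edgeR FDR 0.317), with groups that overlapped. Without TP-3654 replicate 3 the list's median was 0.11. Of 24 genes of this list with a promoter window 11 (45.8%) held GAAANNGAAA, Ddx58 and Eif2ak2 among them, beside 3.99% of all genes searched. The list was made of known interferon target genes, and a link of the motif to their values was not tested.

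The STAT4 and STAT6 target genes belong mostly to lymphocytes and macrophages. Of 7 STAT4 targets 5 were tested, and Ifng and Tbx21 were not among them. At an unadjusted p under 0.05, 2 were higher and 1 lower, beside 10.2% and 6.84% of all tested genes, with a list median of 0.41. That median rested on few genes. On leaving out 1 library it ran from 0.04 (without vehicle replicate 3) to 0.59 (without TP-3654 replicate 1). Il18rap and Il18r1, the 2 chains of the interleukin 18 receptor, were higher in every treated library. Il18rap stood at 52.7, 68.4 and 60.3 CPM in vehicle and at 85.0, 96.4 and 108 CPM with TP-3654 (0.67, SE 0.14, edgeR FDR 0.0818), and Il18r1 at 13.8 ± 4.79 and 24.2 ± 5.99 CPM (0.82, SE 0.29, edgeR FDR 0.221). Hlx, a homeobox gene, was lower in every treated library (17.6 ± 3.15 against 9.26 ± 2.75 CPM, -0.93, SE 0.25, edgeR FDR 0.136). Of 13 STAT6 targets 7 were tested, and 1 was higher and 0 lower at an unadjusted p under 0.05. Gata3, a T helper and stem cell transcription factor, stood at 10.4 ± 2.1 and 15.0 ± 2.73 CPM (0.54, edgeR FDR 0.262) without overlap, and Mrc1 (1.43, edgeR FDR 0.366) and Ccl17 (-1.12, edgeR FDR 0.340) stood at 0.204 to 1.78 CPM in the single libraries and overlapped between groups.

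**Figure D4:**
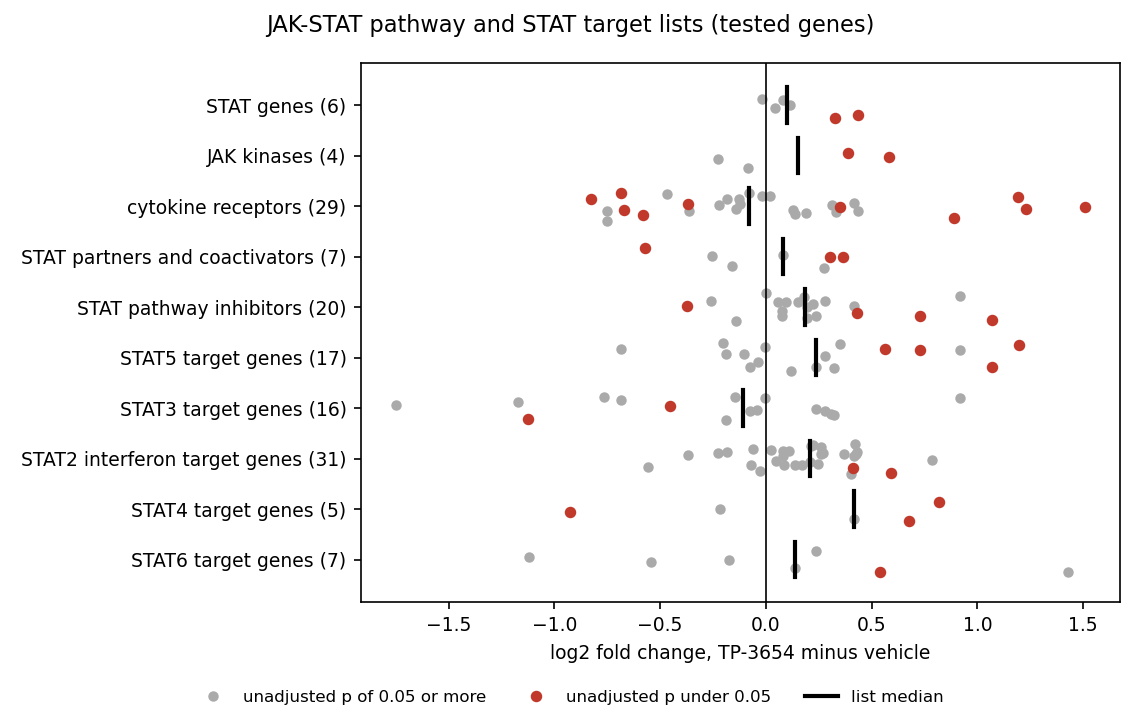
Log2 fold change (x axis, TP-3654 minus vehicle) of every tested gene of the 6 STAT genes and of 9 lists of pathway and target genes, with red points for an unadjusted edgeR p under 0.05, grey points for the others and black bars for the list medians. Points lie on both sides of 0 in each list, and 0 genes passed the FDR of 0.05. With all 6 libraries the medians run from -0.11 for STAT3 targets to 0.41 for STAT4 targets.

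Over all 9 lists 121 of 136 distinct genes were tested, and edgeR called 0 of them with all 6 libraries. DESeq2 called 13 of them, beside 4.92% of all genes with an adjusted p, 7 higher (among them Cish, Pim2, Il18rap, Jak3, Ddx58 and Il7r) and 6 lower (Ifngr2, Ifngr1, Il3ra, Hlx, Lmo4 and Cebpb). These share their counts with the edgeR fit and are not separate evidence.

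To see which genes varied most like each STAT gene, log2 CPM was correlated over the 6 libraries with 9636 well-expressed genes, as a description without a test. For Stat3 the closest was Cd33, a myeloid surface receptor, with a Pearson r of 0.999, and then Sec24b and the calcium channel gene Itpr2, each at 0.988. For Stat4 the closest were Fgd3, Ppp1r13b and Pcmtd1, each at 0.993. Stat5a was most like Tuft1 (0.995), Rptor (0.985) and Pfkl (0.984), and Stat6 most like Fcho2 (0.989), Zfyve27 (0.983) and Rb1cc1 (0.983). Stat5b was most like Trf, the transferrin gene, at 0.989, and then Rpap2 at 0.944 and Lrch1 at 0.943. Stat2 was most like Abcc5 (0.978), Scd2 (0.972) and Tarsl2 (0.961). With 6 points such values are common: the gene ranked 100th still reached 0.950 for Stat4, 0.933 for Stat3, 0.924 for Stat5a, 0.911 for Stat6, 0.799 for Stat5b and 0.767 for Stat2. All points share the same 6 libraries, among them TP-3654 replicate 3.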

How the data were processed

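RNA was sequenced in 6 libraries of LSK cells, 3 from mice given vehicle and 3 from mice given TP-3654, and the labels do not say whether a library holds 1 mouse or several. The authors deposited whole-number read counts per Entrez gene, not normalized. Their deposited comparison table holds, per the file headers, a signal value (the mean of size-factor scaled counts), a log2 fold change and its error, a Wald score, and raw and adjusted p-values. The submitters' processing notes name HISAT2 2.1.0, SAMtools 1.9.0 and DESeq2, and as builds mm10 and GRCm38. How reads were counted, on which annotation and with which strand setting is not given in the sources used here. Poly(A) RNA was selected, per the labels' protocols. Symbols came from the authors' deposited table (12995 genes) and from RefSeq (2844), and 6 genes had none.

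Counts were tested with edgeR 4.0.16 in R 4.3.3, using TMM scaling, filterByExpr, a robust quasi-likelihood fit and Benjamini-Hochberg adjustment over 13149 genes, called under 0.05. The SE was derived as the size of the log2 fold change divided by the root of F. The p-values rest on the spread between 3 libraries per group, which edgeR moderates for each gene towards the spread of other genes. Gene lengths, coding sequences and shared 31-base words came from a GENCODE annotation of GRCm38, and promoters from RefSeq. The edgeR step was tested on simulated counts. At a log2 change of 1 it called 55 of 99 genes, and at 2 it called 86 of 100. Of 12812 unchanged genes it called 8, and changes smaller than 1 were not simulated. The simulated libraries held none that stood apart as TP-3654 replicate 3 did, so these rates need not hold for the real counts. Alternatives were DESeq2 1.42.0, limma-voom (limma 3.58.1) with and without sample weights, other scalings and filters, the non-robust fit, a replicate block and fits without each library. The STAT genes, the 9 pathway and target lists and the 10 marker lists were chosen with earlier results of these data known, so their counts are descriptions. Named are the STAT genes, the JAK kinases, Irf9, Socs1, Socs3, Cish, the 3 genes with the smallest p in each list, every list gene that passed, and the 3 genes most like each STAT gene among those with a mean log2 CPM of at least 3 (prior count 2), leaving out predicted genes and pseudogenes. Other genes are named after their values were seen. Results for an item withheld here are not reported.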

Additional observations from a re-analysis of the deposited data

How the results depend on the processing

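Of the 6 STAT genes, 0 were called in any of the 16 alternative fits. Over all genes, where edgeR called 0 and 2244 had an unadjusted p under 0.05, DESeq2 called 657, limma-voom with sample weights 147, no low-count filter 5, at least 10 counts in every library 39 and the replicate block 3, and leaving out 1 library gave 0 to 31. Among the list genes, where edgeR called 0, DESeq2 called 13, limma-voom with sample weights 2, and leaving out 1 library gave 0 to 1 (Ifngr1 without TP-3654 replicate 2, Cish without TP-3654 replicate 3). The cause of these differences was not tested. The number of STAT genes with an unadjusted p under 0.05, 2 with all libraries, fell to 0 on leaving out any of 3 libraries, which were vehicle replicates 1 and 2 and TP-3654 replicate 3. Of the level ranks, 3 of 6 were kept with coding length, 2 with the longest transcript and all 6 without any 1 library, a setting chosen after seeing the data. For 36 named genes and 16 alternatives, 574 values gave 554 on the same side of 0 and of the threshold, 15 newly called, 0 lost and 5 reversed. All 5 reversals came from leaving out 1 library, where the log2 fold change ran from -0.073 to 0.082 for Stat2, from -0.011 to 0.10 for Stat5b, from -0.015 to 0.17 for Irf9 and from -0.15 to 0.54 for Socs1.

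The ratio of Stat5a to Stat5b differed by 0.03 to 0.12 without each library. With the replicate block the difference was 0.08, which the block leaves unchanged by design, so this is not a check. Over all genes, samples with the same replicate number did not deviate together (r = -0.01, -0.01 and 0.03). The labels do not say whether the numbers pair the samples, and 3 such values cannot settle it. Each STAT gene was counted far above 3 counts in every library. What part of its error came from counting and what part from differences between the libraries was not tested.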

Other observations

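In the authors' deposited table the STAT genes had log2 fold changes of 0.25 for Stat4 (SE 0.10, deposited adjusted p = 0.124), 0.17 for Stat3 (SE 0.09, deposited adjusted p = 0.280), 0.05 for Stat5a, 0.01 for Stat6, 0.00 for Stat5b and -0.10 for Stat2. There, too, 0 of 6 had an adjusted p under 0.05, and the share of all genes under it is not given here. For 6 of 6 genes the value in the authors' deposited table was closer to the edgeR fit without TP-3654 replicate 3 than to the fit with all 6 libraries, with a largest gap of 0.04 against 0.18. Jak1 and Jak3 lay the same way (0.02 against 0.07 and 0.05 against 0.13). Cish and Pim2 lay the other way: their values in the authors' deposited table, 1.04 and 1.16, were 0.03 each from the fit with all 6 libraries and 0.18 and 0.16 from the fit without TP-3654 replicate 3 (deposited adjusted p = 0.293 and 0.224). Which libraries entered the authors' deposited table is not given in the sources used here.

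The mean level of Stat4 in the authors' deposited table was 1143 normalized counts, against a scaled mean of 572 from the deposited counts, a ratio of 2.0. For the other 5 STAT genes that ratio in the authors' deposited table was 0.879 to 0.942, and over 10633 genes with a mean of at least 100 counts its median was 0.869. Only 0.583% of those genes had a higher ratio than Stat4. Stat4 is also the STAT gene with the largest share of transcript sequence in common with another annotated locus, Gm28177 (23.7%), and the part of this in its ratio was not tested.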
